A study of Homo sapiens with 9 samples.

Results

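γH2AX, the form of the histone H2AX that is phosphorylated on chromatin around DNA breaks, was compared between wild-type K562 cells treated with PMA and mock-treated wild-type cells. K562 is an established human myelogenous leukaemia line, and PMA is a phorbol ester that makes these cells stop dividing and take on megakaryocytic features. The members are 4 of the 9 samples of the series: 2 chromatin immunoprecipitation libraries (ChIP-seq) of wild-type (WT) mock cells and 2 of WT cells given 5 nM PMA, both after 72 h. The cells of both treatments were labelled wild type and grown in RPMI with serum. The other samples are 4 libraries of cells knocked out for FANCL (KO), a ubiquitin ligase of the Fanconi anaemia repair pathway, and 1 input library of WT mock cells. On chromosomes 1 to 22 the authors' lists held 14062 and 11690 γH2AX regions in the mock libraries and 42356 and 36067 in the PMA libraries.

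As background, the kinases ATM, ATR and DNA-PK phosphorylate H2AX near a break, and the mark can spread along the chromosome well beyond the break itself. Telomeres that are short or poorly capped can also carry it, and the subtelomeric DNA next to them is rich in repeats and in sequence shared between chromosomes. Phorbol esters activate protein kinase C. No expression was measured here, so the state of differentiation of these cells rests on the labels.

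The depth of the WT libraries was 23.9 and 23.4 M (mega) tags in mock and 27.2 and 16.97 M in PMA. Each library had its own threshold for calling a window, which was 6.26 and 6.42 tags per 10 M in mock and 5.89 and 7.07 in PMA, so the second PMA library had the strictest one. Of all tags, 1.55 and 1.39% lay inside regions in mock and 4.69 and 4.24% in PMA, a share that the file headers call the approximate efficiency of the immunoprecipitation. More γH2AX and a more efficient immunoprecipitation cannot be told apart in these lists, since the share moves with the treatment. Every region was called against the one input of WT mock cells, and PMA cells had no input of their own. Nothing in the labels says whether the replicates were separate cultures. The p-values therefore cover the spread between libraries only, and that spread may be technical.

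In the lists as called, γH2AX regions after PMA covered more of the interior of the chromosomes and less of the sequence beside their ends. Covered length, meaning the base pairs that fall in called regions, was 9.61 and 8.17 Mb on chromosomes 1 to 22 in the mock libraries and 31.3 and 24.8 Mb in the PMA libraries. Every PMA library therefore lay above every mock library. The ratio of the group means on the log scale was 3.14-fold, with means of 8.89 ± 1.02 Mb and 28.0 ± 4.62 Mb (SD, n = 2 each) and p = 0.33 by an exact permutation test, which cannot go lower with 2 against 2 libraries. The ratio was 1.18-fold when equally many regions were taken per library.

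The direction depended on the distance from the nearest chromosome end. Ends were counted at 39 arms, leaving out the short arms of the 5 acrocentric chromosomes, and a long arm was taken to stop at the furthest base called in the 8 lists. Within 200 kb of an end the mock libraries held 1.56 and 1.45 Mb and the PMA libraries 0.623 and 0.506 Mb, a ratio of 0.373 (0.218 with equal numbers of regions per library). From 200 kb to 1 Mb the values were 1.79 and 2.0 Mb in mock against 1.70 and 1.59 Mb in PMA, with no overlap and a ratio of 0.868 (0.423 with equal numbers of regions). With 1 tag density for all libraries this last class held 0.797 and 1.13 Mb in mock against 0.786 and 1.15 Mb in PMA, so the groups overlapped.

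From 1 Mb inward the PMA libraries were the higher ones. At 1 to 2 Mb the mock libraries held 0.238 and 0.317 Mb and the PMA libraries 0.531 and 0.599 Mb, 2.05-fold more, although this turned to a log2 difference of −0.34 when the same number of regions was taken from each library. The ratio was 3.70-fold at 2 to 5 Mb and 4.97-fold at 5 to 10 Mb. Beyond 10 Mb it was 4.98-fold, from 5.07 and 3.59 Mb in mock to 24.4 and 18.5 Mb in PMA. With equal numbers of regions per library these 3 ratios were 1.57, 2.12 and 1.77, and with regions of at least 1000 bp they were 10.6, 23.4 and 21.4. Each of these classes had an exact permutation p of 0.33, again the smallest possible. Of the whole covered length, 17% ± 1.03 lay within 200 kb of an end in mock and 2.02% ± 0.0375 in PMA (SD, n = 2 each).

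**Figure D1:**
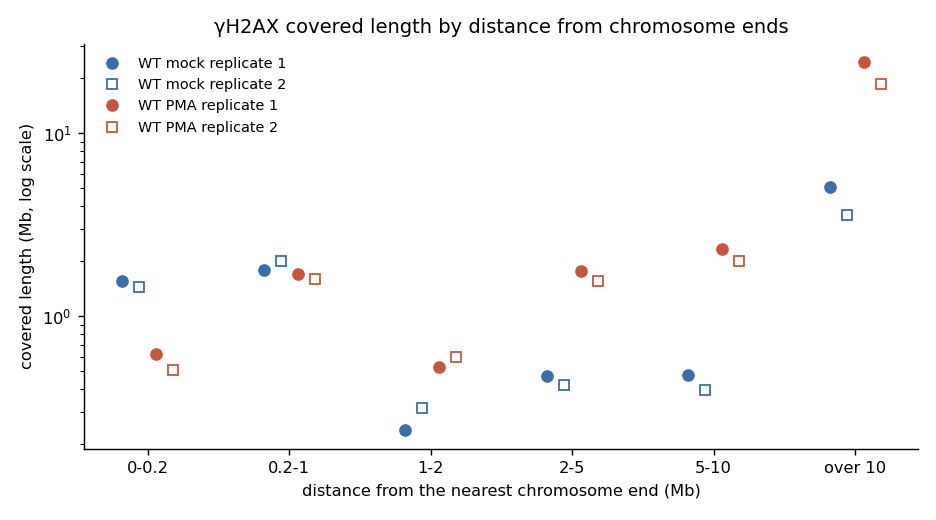
Covered length of γH2AX in Mb (log scale) in 6 classes of distance from the nearest chromosome end, one point per WT library. The mock points lie above the PMA points within 200 kb of the ends (1.56 and 1.45 against 0.623 and 0.506 Mb), and the PMA points lie above the mock points in each class beyond 1 Mb.

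Not every chromosome end behaved alike. In windows of 1 Mb, the PMA pair was entirely below the mock pair at 27 of the 39 ends, entirely above it at 8, and the groups overlapped at 4. For comparison, among all 100-kb bins tested the PMA pair was entirely below in 4.94% and entirely above in 51.4%. These bins are smaller than the end windows, so the shares are not like for like. Of the 9474 bins, 3330 had no region in either mock library and could not be below. The start of chromosome 2 held 150 and 125 kb in mock and 11.1 and 11.8 kb in PMA. The end of chromosome 10 held 30.4 and 37.1 kb in mock and 3.07 and 2.50 kb in PMA. At both of these ends more than 4 in 5 of the covered base pairs of the mock cells were missing from the PMA lists.

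The end of chromosome 7 was the most covered of the 39 in mock, at 421 and 406 kb, and kept 261 and 218 kb after PMA. The long-arm end of chromosome 21 came next and moved little over the whole 1 Mb, from 279 and 315 kb to 263 and 267 kb. Within 200 kb of that end it fell from 154 and 142 kb to 98.4 and 83.9 kb. At the long-arm end of chromosome 13 the order was the opposite, with 58.6 and 50.2 kb in mock against 90.8 and 67.0 kb in PMA. The end of chromosome 9 likewise held 11.9 and 13.7 kb in mock and 25.3 and 28.5 kb in PMA, and its start 5.00 and 2.25 kb against 18 and 11 kb. The other 5 higher ends were the start of chromosome 11 and the ends of chromosomes 3, 5, 15 and 16. These ends were named after their values were seen.

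Within 200 kb of the ends the PMA pair was again entirely below at 27 ends, and it was entirely above at 2. Those were the end of chromosome 5, with 19.96 and 19.6 kb in mock against 26.6 and 26.9 kb in PMA, and the start of chromosome 16, with 8.28 and 12.6 kb against 16.4 and 15.3 kb. Sequence at the very ends is repeated between chromosomes, and how reads with several possible positions were placed is not given in the sources used here.

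**Figure D2:**
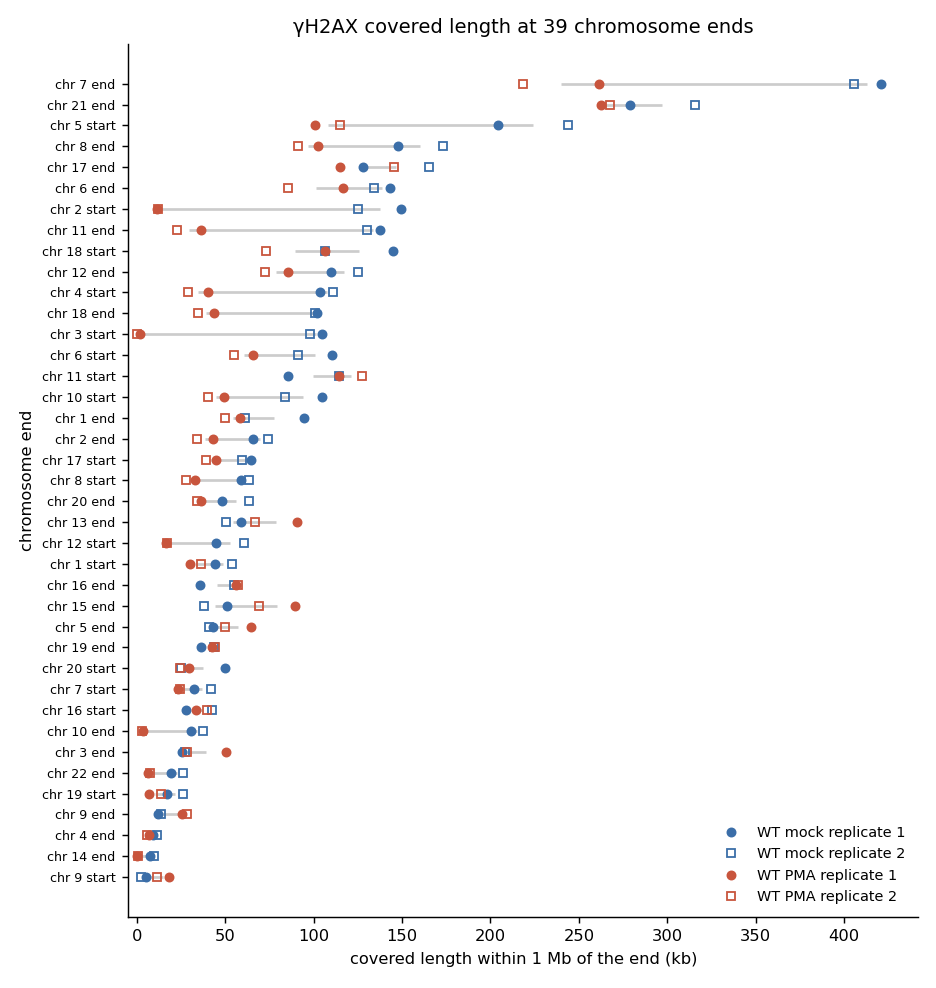
Covered length in kb within 1 Mb of each of 39 chromosome ends, one row per end sorted by the mock mean, one point per WT library, with a grey line between the group means. At 27 ends both PMA points lie left of both mock points, and at 8 ends they lie right of them.

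The genome was then read in bins of 100 kb, with covered length per bin tested in limma on log2(covered bp + 1000) over the 9474 bins covered in at least 2 of the 8 libraries. Of these, 3069 were higher after PMA (32.4%) and 223 lower (2.35%) at a Benjamini-Hochberg adjusted p of 0.05. The median bin was 0.68 higher on this log2 scale, so most bins moved up with the whole library. After each library was centred on its median the split was 1220 higher and 967 lower, and it was 461 and 430 when equally many regions were taken per library. The number of raised bins fell to 1515 without the second mock library and to 1294 without the first PMA library, and that of lowered bins to 124 and 142.

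The share of bins called followed the distance from the ends. Of the 81 bins tested within 200 kb of an end, 53.1% were lower and 1.23% higher. From 200 kb to 1 Mb 27.7% were lower and 16.5% higher, and from 1 to 2 Mb 6.42% and 15.1%. Beyond 10 Mb 1.06% of the bins were lower and 35.1% higher. A bin can be lowered only where the mock lists held regions. Of the raised bins, 1163 had no region in either mock library, and of the lowered bins 136 had none in either PMA library.

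**Figure D3:**
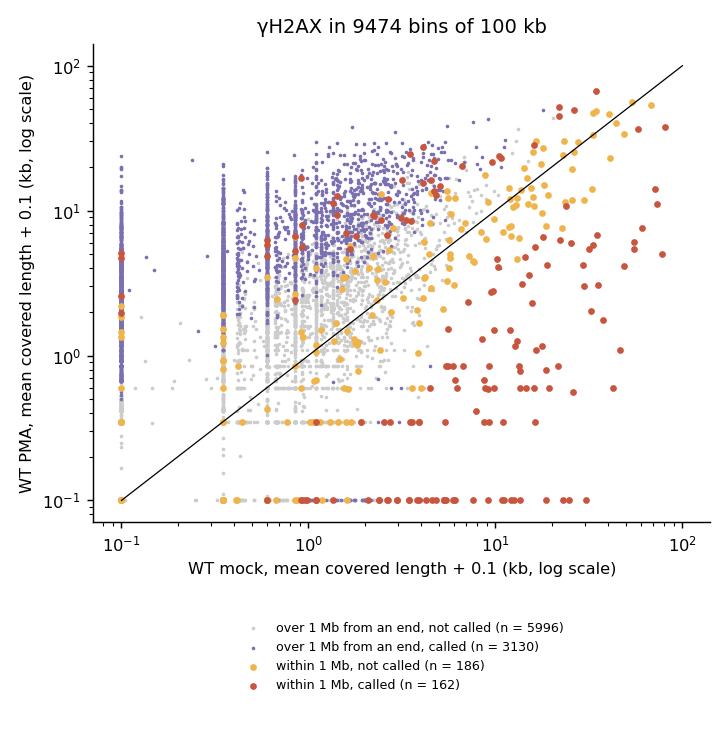
Mean covered length per 100-kb bin in WT mock (x) and WT PMA (y), in kb plus 0.1 kb on log scales, with the line of equal values and with bins split by distance from an end and by the limma call. Called bins over 1 Mb from an end lie mostly above the line, and called bins within 1 Mb of an end lie mostly below it.

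The bins with the largest rise, at most 1 per chromosome, of which 11 are given here, lay between 3.15 and 85.3 Mb from an end and held nearly no γH2AX in mock cells. Their mock means ran from 0 to 1.62 kb and their PMA means from 13.3 to 37.8 kb. In limma their log2 differences ran from 3.54 to 4.60 (SE 0.18 to 0.53) with adjusted p between 0.000883 and 0.00547. In 5 of the 11 neither mock library had a region, and a group at 0 adds no spread, which lowers the SE. No hg19 gene annotation was used, so the gene named for a bin is background knowledge of the hg19 map, and exons and introns were not assigned. Other genes may lie in the same bin, and covered length was not assigned to single genes.

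The genes are taken one by one, since no gene list was tested. The bin from 39700001 to 39800000 on chromosome 20, at TOP1, the topoisomerase that relaxes supercoiled DNA by nicking a single strand, had no region in either mock library and held 14.6 and 14.5 kb in PMA. On chromosome 16 the bin from 81000001 to 81100000, at CENPN (a centromere protein) and ATMIN (a cofactor of the kinase ATM), held 0.5 and 0 kb in mock and 17.7 and 14.8 kb in PMA. In all of these the PMA libraries stood far above both mock libraries. The bin from 93500001 to 93600000 on chromosome 15, at the chromatin remodeller gene CHD2, held 0.5 kb in each mock library and 22.01 and 12.4 kb in PMA.

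On chromosome 6 the bin from 20400001 to 20500000, at E2F3, a transcription factor for entry into S phase, held 1.0 kb in each mock library and 35.6 and 24.1 kb in PMA. The bin from 30600001 to 30700000 on chromosome 21, which reaches the start of BACH1, a haem-binding repressor, held 0 and 0.5 kb in mock and 14.4 and 12.3 kb in PMA. For these bins the lower PMA library was more than 20 times the higher mock library. At USP24, a deubiquitinase gene on chromosome 1 (bin 55600001 to 55700000), both mock libraries had no region and the PMA libraries held 28.2 and 19.2 kb. At KCMF1, a ubiquitin ligase gene on chromosome 2 (bin 85200001 to 85300000), mock again had none and PMA held 24.5 and 14.9 kb.

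On chromosome 7 the bin from 127300001 to 127400000, at SND1, a nuclease-domain protein of RNA regulation, held 0.5 and 2.73 kb in mock and 39.8 and 35.9 kb in PMA, the highest level of the 11. At LARP1, which binds mRNAs of the translation machinery (chromosome 5, bin 154100001 to 154200000), mock held 0.276 and 0 kb and PMA 21.5 and 22.8 kb. The PMA libraries were close to each other in both of these bins. At SQLE, squalene epoxidase of sterol synthesis (chromosome 8, bin 126000001 to 126100000), mock had none and PMA held 28.2 and 10.2 kb, the widest gap between PMA replicates among the 11. At PFKP, a phosphofructokinase of glycolysis (chromosome 10, bin 3100001 to 3200000), mock had none and PMA held 17.3 kb in each library.

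Several of these calls depended on regions of lower fold over input, although all 11 held with regions of at least 1000 bp. When regions under 6-fold over input were left out, the call ended for the bins on chromosomes 1, 5, 6, 7, 8 and 20. The log2 differences were then between 0.81 and 2.24, all still upward. The TOP1 bin also lost its call with 1 tag density (2.22) and with the same number of regions (1.74).

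The 12 bins with the largest fall all lay within 0.250 Mb of an end. Their log2 differences ran from −4.96 to −3.35 (SE 0.19 to 0.53), with limma adjusted p between 0.000883 and 0.00394. Their mock means ran from 10.98 to 77.6 kb and their PMA means from 0 to 4.92 kb. In 5 of the 12 neither PMA library had a region, and a group at 0 adds no spread, which lowers the SE. The smallest SE was on chromosome 11, where only the mock libraries had regions and the bin passed the filter through them alone. The largest mock level was on chromosome 7 from 159000001 to 159100000, at 79.3 and 76.0 kb in mock against 4.55 and 5.29 kb in PMA. At 6-fold over input or more this bin turned to a log2 difference of 0.32 (limma adjusted p = 0.667), so the fall was not seen in the regions of high fold alone. The bin kept its call with 1 tag density and with regions of at least 1000 bp.

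The first 100 kb of chromosome 2, where FAM110C lies, held 50.5 and 41.7 kb in mock and 2.0 and 0 kb in PMA. On chromosome 3 from 100001 to 200000 the mock libraries held 42.9 and 41.5 kb and the PMA libraries 1.0 and 0 kb. On chromosome 11 from 134800001 to 134900000 mock held 33.4 and 27.2 kb, and neither PMA library had a region. In each of these 3 bins mock replicates were alike and PMA left almost nothing.

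A gene is named here for 3 of the other lowered bins, from background knowledge, and the rest were not searched for genes. At CYP2E1, a cytochrome P450 gene on chromosome 10 (bin 135300001 to 135400000), mock held 19.4 and 17.5 kb and PMA 0.894 and 0.5 kb. At SHANK3, a postsynaptic scaffold gene on chromosome 22 (bin 51100001 to 51200000), mock held 12.5 and 16.3 kb and PMA 0.5 kb in each library. At RPH3AL, an exocytosis gene on chromosome 17 (bin 100001 to 200000), mock held 10.2 and 13.9 kb and neither PMA library had a region. The remaining lowered bins, on chromosomes 4 (from 100001), 8 (from 200001), 12 (from 133800001), 15 (from 102300001) and 18 (from 1), held 6.89 to 23.3 kb in the mock libraries and at most 1.0 kb in a PMA library. The call on chromosome 2 ended at 6-fold (−2.28) and that on chromosome 8 with regions of at least 1000 bp (−1.98).

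**Figure D4:**
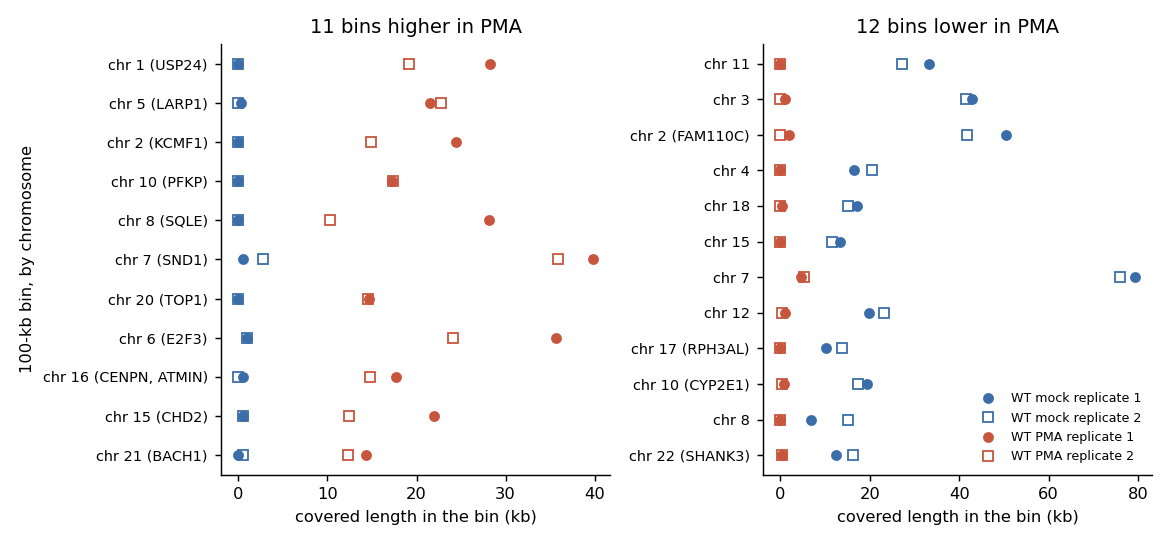
Covered length in kb in 11 of the bins with the largest rise (left) and the 12 with the largest fall (right), one point per WT library, named by chromosome and, where one is given in the text, by gene. No bin has overlapping groups, and mock points on the left lie at or near 0, as do most PMA points on the right.

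Raised bins stood next to each other in places. Runs of neighbouring called bins were counted after the data had been seen: the 3069 raised bins formed 1830 runs, of which 1102 were single bins and 55 were at least 5 bins long. The longest were 10 bins, or 1000 kb. One of them, on chromosome 6 from 20100001 to 21100000 over E2F3 and CDKAL1, held 23.4 and 15.9 kb in mock and 196 and 124 kb in PMA. On chromosome 7 from 138700001 to 139700000, over the kinase gene HIPK2 and the thromboxane synthase gene TBXAS1, mock held 12.7 and 10.4 kb and PMA 96.3 and 97.1 kb. In both stretches the lower PMA library was over 5 times the higher mock library.

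On chromosome 2 from 8800001 to 9800000, over ASAP2 and the shedding protease gene ADAM17, mock held 5.39 and 3.0 kb and PMA 80.9 and 59.2 kb. On chromosome 10 from 70500001 to 71300000, over the proteoglycan gene SRGN and the hexokinase gene HK1, mock held 13.4 and 10.9 kb and PMA 118 and 88.9 kb. Lowered bins formed 156 runs, and only 4 were at least 5 bins long. They were the last stretch of chromosome 11 from 134200001 to 135000000, at 124 and 121 kb in mock against 6.88 and 6.26 kb in PMA, and the first 700 kb of chromosomes 2, 3 and 10. The first 700 kb of chromosome 10 went from 97.9 and 72.7 kb to 6.71 and 4.18 kb.

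Single regions were then matched across the 4 lists, counting regions that shared at least 1 bp as one. Of 81367 merged regions, 8027 were called in both PMA and neither mock library (9.87%) and 959 in both mock and neither PMA library (1.18%). A further 795 were called in all 4 libraries, and 79.7% were called in 1 library only. Because these classes were picked on the comparison itself, their numbers are a description. With the same number of regions taken from each library the 2 classes were nearly equal, at 1373 and 1313. With 1 tag density they were 2416 and 299.

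The PMA-only and mock-only regions had similar medians of length and fold and lay in different places. The median length was 970 bp for PMA-only and 907 bp for mock-only regions, and the median of the lower of the 2 folds over input was 4.1 and 4.27. The upper tail of length was longer in the mock-only regions, with a 90th percentile of 2463 against 2075 bp, and 22 of 959 reached 5 kb against 17 of 8027 PMA-only regions. Their median distances from an end were 29.6 Mb and 0.403 Mb. Within 1 Mb of an end lay 3.41% of the PMA-only and 65.1% of the mock-only regions. For regions called in a single library this share was 2.45 and 3.13% in PMA and 14.1 and 19.5% in mock. It was 51.7% for regions called in all 4 libraries. Of the mock-only regions, 28.5% lay within 200 kb, against 0.237% (19) of the PMA-only regions.

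The PMA-only regions with the highest fold over input were short. On chromosome 20 a region from 46277281 to 46277999, in NCOA3, a coactivator of nuclear receptors, reached 38.3- and 35.1-fold over input in the authors' lists. The next was on chromosome 3 from 23991110 to 23991822, in NR1D2, a nuclear receptor of the circadian clock, at 31.5- and 39.4-fold. On chromosome 13 the region from 113846521 to 113847389, in PCID2, reached 27.4- and 41.6-fold. Those on chromosomes 1 (101339903 to 101340449, in EXTL2) and 10 (12251600 to 12252117, in CDC123) reached 27.4- to 30.7-fold. Folds this high rest on few tags, since the first of these regions held 10.3 and 9.43 tags per 10 M. The region in EXTL2 held 7.36 and 7.66, near the calling thresholds of 5.89 and 7.07 of the PMA libraries. A high fold therefore does not mean a strong signal here.

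The longest PMA-only regions were weaker in fold and held more tags. On chromosome 1 the region from 224603571 to 224611314, in WDR26, a subunit of a ubiquitin ligase, spanned 7743 bp at 3.23- and 7.39-fold, with 118 and 58.9 tags per 10 M. The next were 7371 bp on chromosome 10 from 11502333 at USP6NL and 6399 bp on chromosome 2 from 158700878 at ACVR1, an activin receptor gene. On chromosome 3 PDCD6IP, from 33851288, held 6215 bp, and on chromosome 5 P4HA2, a collagen prolyl hydroxylase gene, held 6208 bp from 131528854.

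Mock-only regions reached greater lengths, and the 5 longest all lay within 106 kb of an end. The longest spanned 19279 bp on chromosome 2 from 13381 to 32660, with 324 and 261 tags per 10 M at 5.98- and 5.6-fold. Those on chromosomes 3 (from 100404), 11 (from 134899440), 5 (from 73648) and 7 (from 159069652) spanned 10933, 10446, 9616 and 9480 bp. By fold the first was a 595-bp region in AGPS, an enzyme of ether lipid synthesis, on chromosome 2 from 178372091 to 178372686, at 31.1- and 25.5-fold. The others were on chromosomes 14 (from 107169255), 4 (from 285342, in ZNF732), 7 (from 112548694) and 8 (from 195906), at 20.96- to 29.5-fold.

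In the 795 regions called in all 4 libraries, the length called and the tags in it also differed by distance from an end. In the 140 of them within 200 kb of an end, the tags per 10 M summed to 14143 and 12525 in mock and to 8257 and 7367 in PMA. In the 384 beyond 1 Mb they summed to 5925 and 5334 in mock and to 14001 and 12802 in PMA. Between 200 kb and 1 Mb, 271 regions held 8891 and 9432 tags in mock and 11014 and 10815 in PMA. The median ratio per region was 0.71, 1.85 and 1.12 in these 3 classes. Beyond 1 Mb both PMA libraries lay above both mock libraries in 221 regions and below them in 15, and within 200 kb in 26 and 64. Each library's tags were summed over its own calls in a merged region, and these were 687 and 596 kb long in mock and 438 and 367 kb in PMA within 200 kb of an end. Beyond 1 Mb they were 331 and 298 kb in mock and 707 and 605 kb in PMA. The tags per 500 bp of called length, taken as summed tags over summed length, were therefore closer. They were 10.3 and 10.5 in mock against 9.42 and 10.0 in PMA within 200 kb. Beyond 1 Mb they were 8.94 and 8.95 in mock against 9.90 and 10.6 in PMA.

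The median region length was 500 bp in each of the 4 WT libraries, which is the width of a single calling window and so a floor (log2 difference 0, exact permutation p = 1.0). The upper tail differed. The 90th percentile was 905 and 928 bp in mock and 1280 and 1088 bp in PMA. Regions of at least 1000 bp made up 8.73 and 9.23% of the mock lists and 14.3 and 11.1% of the PMA lists.

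Long regions had another place in PMA than in mock cells. In mock, 347 and 329 regions reached 2 kb, and 93.7 and 96.4% of them lay within 1 Mb of an end. In PMA 1224 and 719 reached that length, of which 17.8 and 24.3% lay there. At 5 kb or more there were 66 and 64 regions in mock, with none beyond 1 Mb from an end. PMA had 82 and 42 such regions, of which 36 and 14 lay beyond 1 Mb and 22 and 8 beyond 10 Mb.

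Several of the long interior regions lay close together on chromosome 3. The longest spanned 14464 bp from 4721481 to 4735945, in ITPR1, the inositol trisphosphate receptor of calcium release, at 2.66-fold with 285 tags per 10 M in the first PMA library. In the second PMA library regions of 8595 and 10022 bp lay on either side of it, from 4692785 and from 4742232. On chromosome 9 a run of long regions from 123577488 to 123597195, at the proteasome assembly gene PSMD5, reached 2.79- to 2.99-fold in the first PMA library. Others rested on positions with many input tags. At NUP214 on chromosome 9 the region from 134054783 to 134061644 was 2.08-fold over 339 input tags in the first PMA library. On chromosome 22 the region from 22850762 to 22861294 was 2.06-fold over 342 input tags in the second PMA library. Input tags are scaled in that second list and are whole counts in the first, so the 2 values are not in the same unit. The part of copy number in these regions was not tested.

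**Figure D5:**
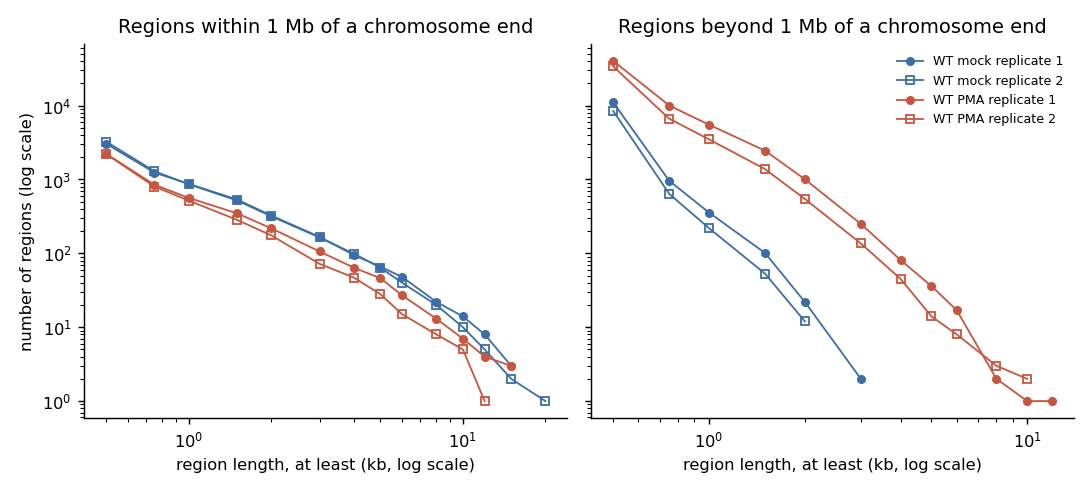
Number of regions of at least a given length in kb (both axes on log scales) in each WT library, within 1 Mb of a chromosome end (left) and beyond it (right). Near the ends the mock curves lie at or above the PMA curves up to 10 kb, and beyond 1 Mb the PMA curves lie above the mock curves and reach past 5 kb where mock has no region.

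In the lists as called, the only setting computed per chromosome, the ratio of mean covered length was above 1 on all 22 chromosomes. The ratio of covered length was highest on chromosome 14 at 6.50-fold, from 0.195 and 0.203 kb per Mb in mock to 1.35 and 1.24 kb per Mb in PMA, the lowest group means of the 22 chromosomes (in the second PMA library chromosome 13, at 1.23 kb per Mb, was lower). Chromosome 15 followed at 5.41-fold. The ratio was lowest on chromosomes 13 (1.67-fold), 18 (1.70-fold) and 21 (1.90-fold). Chromosome 21 had the highest mock level, at 8.65 and 8.58 kb per Mb, and held 17.3 and 15.5 kb per Mb after PMA.

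PMA-only regions were densest on chromosomes 1 (5.59 per Mb), 6 (5.33 per Mb) and 7 (4.46 per Mb). They were sparsest on chromosomes 13 (0.139 per Mb), 14 (0.196 per Mb) and 4 (0.440 per Mb). Among tested bins the share raised ran from 14.4% on chromosome 22 and 16.1% on chromosome 19 to 42.3% on chromosome 8. These chromosomes were named after their values were seen.

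The same treatment was also given to the FANCL knockout cells, and the response to PMA was compared between genotypes in the same limma fit. KO mock libraries covered 17.2 Mb each, against 9.61 and 8.17 Mb in WT mock, so the genotypes started from different levels. Of the KO mock tags, 3.42 and 3.67% lay inside regions, at depths of 17.8 and 15.6 M tags. How far this starting level enters the interaction was not tested. In KO cells 1242 bins were higher after PMA (13.1%) and 508 lower (5.36%). The interaction term, the log2 PMA difference in KO minus that in WT, passed the threshold in 1549 bins. It was negative in 1202 (12.7%) and positive in 347 (3.66%). The sign does not give the size of the response, since a positive term in a bin lowered in WT means a weaker fall or a rise in KO. Of the 223 bins lowered in WT, 107 had a positive term. After centring each library the split was 194 negative and 826 positive, so the more frequent sign depended on the scaling.

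Of the 3069 bins raised in WT, 584 were also raised in KO (19.0%). By the interaction, 897 had a lower log2 PMA difference in KO than in WT and 21 a higher one. These bins were chosen on the WT values that also enter the interaction, so the counts are a description. Among the 11 raised bins given here, that at LARP1 also rose in KO, from 2.44 and 1.95 kb to 16.8 and 16.3 kb (log2 2.46, limma adjusted p = 0.00157). At PFKP the KO libraries held 8.70 and 6.29 kb in mock and 6.09 and 9.97 kb in PMA, and at USP24 at most 0.5 kb in any KO library. Of the 223 bins lowered in WT, 53 were also lowered in KO. In the 12 lowered bins named here KO mock cells held little to begin with, at most 5.51 kb in any library. Runs of lowered bins differed in this. On chromosome 7 from 158800001 to 159200000 the KO libraries held 43.0 and 40.3 kb in mock and 6.10 and 8.15 kb in PMA. The first 700 kb of chromosome 3 held 0 and 0.5 kb in KO mock. Of the PMA-only regions of WT, 43.9% overlapped a region of any KO list and 14.8% were touched by both KO PMA lists, against 33.1 and 8.76% of the mock-only regions. For regions called in a single WT library those shares ran from 18.7 to 33.7% and from 4.64 to 10.3%.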

How the data were processed

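γH2AX ChIP-seq regions of 8 K562 libraries were used, 4 of them WT. The submitters' processing notes name CASAVA 1.4, BWA, HOMER and build hg19. HOMER region calls were made by the authors in each library against the single WT mock input, per the file headers. Windows were 500 bp, with a caller p of 0.001, at least 2-fold over input with p 0.0001, a local filter of 10 kb and 1 tag per bp. The deposited signal is tags normalised by the authors to 10 M tags. The deposited ratio is the authors' fold over input of a region, the deposited score is HOMER's region score, and the deposited p-value is HOMER's own for a region. These values described, ranked or filtered regions within a list.

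Regions were merged per library, and covered base pairs were summed per library, distance class, chromosome and 100-kb bin of chromosomes 1 to 22. limma 3.58.1 (R 4.3.3, mean-variance trend, two-sided) was run on bins with regions in at least 2 libraries, on log2(covered bp + 1000), a scale that understates changes of little-covered bins. All 8 libraries entered 1 fit of 4 groups. Benjamini-Hochberg adjustment ran over all bins tested, and neighbouring bins are not independent. The script was tested on simulated data. Library values were compared on the log2 scale by exact two-sided permutation tests (6 labellings). Depth was 16.97 to 27.2 M tags in the WT libraries, and a deeper library could call weaker windows. Other steps used Python 3.11.15, numpy 2.4.6, pandas 2.3.3 and scipy 1.17.1.

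Named bins were the 12 with the largest rise and the 12 with the largest fall past the threshold, at most 1 per chromosome in each direction; 1 raised bin is not reported here. Named regions were the 5 with the highest lower fold and the 5 longest of each class, at most 1 per chromosome. Runs, interior long regions, ends and chromosomes were named after their values were seen, and the members, lists and rules were chosen with earlier results of these data known. No genome or annotation of hg19 was used here. Tests over gene bodies and gene lists were therefore not run, no sequence is shown, and gene names at loci are background knowledge of the hg19 map. For each of the 38 symbols used, RefSeq GRCh38.p14 gives the chromosome stated here. Alternatives were other pseudocounts, filters, scalings, region thresholds, overlaps and end windows, a replicate block, and leaving out each WT library.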

Additional observations from a re-analysis of the deposited data

Results flagged for a closer look

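The response to PMA differed between WT and KO cells in 1549 of the 9474 bins tested, by the interaction term in limma. It did so at 22 of the 23 bins given here, all but the SND1 bin on chromosome 7. As differences of the PMA effect in KO minus that in WT on the log2 scale, the raised bins gave −4.31 on chromosome 1, −4.12 on chromosome 10, −4.11 on chromosome 2, −3.62 on chromosome 20, −3.47 on chromosome 15, −3.40 on chromosome 16, −2.97 on chromosome 21, −2.82 on chromosome 6, −2.76 on chromosome 8 and −1.89 on chromosome 5. The lowered bins gave 4.96 on chromosome 11, 4.93 on chromosome 3, 3.97 on chromosome 2, 3.40 on chromosome 15, 3.20 on chromosome 8, 3.11 on chromosome 12, 2.997 on chromosome 4, 2.34 on chromosome 18, 2.33 on chromosome 17, 1.58 on chromosome 10, 1.495 on chromosome 7 and 1.29 on chromosome 22. All these bins were picked for their change in WT, which favours a larger change there, and KO mock cells had little covered length in the lowered ones. In the lowered bins on chromosomes 11 and 3 no KO library had a region. The term there is only the WT difference with its sign turned, and it holds no measured KO response.

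Chromosome X, which lies outside the comparisons, held 20 and 22 regions in the WT mock libraries and 67 and 57 in the WT PMA libraries, a log2 difference of covered length of 1.17. The contigs and decoy sequence outside the chromosomes went the other way, from 224 and 237 kb of covered length to 118 and 101 kb (log2 −1.08).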

How the results depend on the processing

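The counts of bins moved by more than 1.5 times under several settings. Bins higher, lower and changed in all were 1220, 967 and 2187 after centring each library on its median, 1032, 103 and 1135 at 6-fold over input or more, 959, 70 and 1029 with regions of at least 1000 bp, 1297, 89 and 1386 with 1 tag density, and 461, 430 and 891 with equal numbers of regions per library. Leaving out 1 WT library gave 1294 to 2147 higher, 124 to 180 lower and 1436 to 2309 changed bins, and 466 to 924 bins with an interaction. The interaction count was 1020 after centring, 721 at 6-fold and 733 with the same number of regions. PMA-only regions numbered 1163 at 6-fold, 1063 at 1000 bp, 2416 with 1 tag density and 1373 with the same number of regions, and mock-only regions 178, 236 and 299 under the first 3. Fewer regions entered under each of these filters. For the other changes the cause was not tested.

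The log2 difference of the median region length was −0.093 with regions of at least 1000 bp and 0.34 with the same number of regions. That of covered length 200 kb to 1 Mb from the ends reversed to 0.0014 with 1 tag density, that 1 to 2 Mb from the ends to −0.34 with the same number of regions, and the lowered bin on chromosome 7 to 0.32 at 6-fold. Covered length in all and within 1 Mb of the ends kept its direction under every alternative run (1.18-fold and 0.332-fold with equal numbers of regions, against 3.14 and 0.648), but with an exact p that cannot go below 0.33 no threshold could be passed. The WT groups share replicate numbers only. Over the bins tested, the difference between replicates 1 and 2 in WT mock correlated at 0.16 with that in WT PMA. With a replicate block 2910 bins were higher and 207 lower. The alternatives for gene bodies were not run, for lack of hg19 gene positions. A WT PMA depth of 16.97 M tags limits which weak windows the second PMA library could call.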
